A study of Mus musculus with 12 samples.

Results

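The genes described here are TREM2, its adaptor and the genes best known from disease-associated microglia, a microglial state first defined around amyloid plaques. The list held 9 genes, Trem2, Tyrobp, Clec7a, Itgax, Axl, Cst7, Spp1, Gpnmb and Cd9. They were chosen by name from knowledge of this state, but with earlier results of these data known. Counts of members called are therefore descriptions and not those of an independent list. For 8 of the 9 a probe paired with that gene alone was used, out of 18194 genes with such a probe, and Spp1, which encodes osteopontin, was not analysed here. All 8 were among the 10511 genes tested.

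Female C57BL/6 mice, 3 in each of 4 groups, gave 1 segment of spinal cord apiece, cut at Th9 after perfusion. Young means an age of 2 to 3 months and aged an age of 15 to 18 months. Intact cords came from naive mice, and injured cords from mice killed 9 days after a contusion spinal cord injury (SCI) at Th9. Crossing age and injury gives the groups young intact, young injured, aged intact and aged injured, and the comparisons ask what injury does to the cord at each age and how age alters the intact and the injured cord. A whole segment mixes neurons, glia, vessels and cells that enter from the blood, so no signal belongs to microglia alone, and more cells of a type cannot be told apart from more RNA per cell.

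TREM2 is a lipid-binding receptor of myeloid cells that has no signalling tail of its own and signals through TYROBP, also called DAP12, which recruits the kinase SYK. In mouse models of neurodegeneration, microglia that meet myelin debris, dying cells or amyloid lower their homeostatic genes and raise Tyrobp and Apoe, and then, in a step that needs TREM2, raise genes such as Clec7a, Itgax, Axl, Cst7 and Cd9. Spp1 and Gpnmb are further markers of this state. Macrophages that clear debris in injured cord can express many of the same genes.

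The sequences just upstream of 4 members are shown: Trem2 and Clec7a, which lay close to each other over the arrays, and Gpnmb and Itgax, which went from under the cutoff in every intact to above it in every injured cord. They are the 250 bases before the RefSeq transcription start on the strand of the gene, in build GRCm38.p6, with matches to searched motifs in capitals. The motifs, searched on both strands, were GAGGAA (core of the sites of PU.1, the myeloid lineage factor), TGANTCA (AP-1) and CACGTG (the E-box bound by MITF and TFEB), and no 2 matches overlapped. Trem2 lies on the plus strand (chr17:48346151-48346400), Clec7a on the minus strand (chr6:129472780-129473029), Itgax on the plus strand (chr7:128129300-128129549) and Gpnmb on the plus strand (chr6:49036268-49036517).
Trem2: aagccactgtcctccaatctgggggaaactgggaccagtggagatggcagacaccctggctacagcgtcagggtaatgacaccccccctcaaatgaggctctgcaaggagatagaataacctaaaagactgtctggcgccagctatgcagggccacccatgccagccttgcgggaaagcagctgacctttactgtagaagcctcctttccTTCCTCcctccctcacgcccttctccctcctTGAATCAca
Clec7a: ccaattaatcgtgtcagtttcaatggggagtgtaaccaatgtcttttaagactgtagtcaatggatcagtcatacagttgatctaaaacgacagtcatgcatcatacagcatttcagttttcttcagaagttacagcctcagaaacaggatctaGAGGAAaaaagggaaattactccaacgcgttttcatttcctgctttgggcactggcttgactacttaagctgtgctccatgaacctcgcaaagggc
Itgax: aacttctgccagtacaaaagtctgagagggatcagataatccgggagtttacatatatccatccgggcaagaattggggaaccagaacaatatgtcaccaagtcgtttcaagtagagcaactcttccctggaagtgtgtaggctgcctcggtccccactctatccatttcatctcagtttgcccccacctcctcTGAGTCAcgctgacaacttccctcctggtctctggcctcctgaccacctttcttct
Gpnmb: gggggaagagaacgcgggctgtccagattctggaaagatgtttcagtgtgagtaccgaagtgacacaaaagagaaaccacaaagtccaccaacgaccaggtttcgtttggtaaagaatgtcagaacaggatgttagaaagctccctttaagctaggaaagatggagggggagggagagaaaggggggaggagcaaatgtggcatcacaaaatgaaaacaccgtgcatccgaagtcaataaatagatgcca
The Trem2 window held the reverse complement of GAGGAA from 40 bases before the start and an AP-1 match from 9 bases before it. GAGGAA began 96 bases before the start of Clec7a, and an AP-1 match began 56 bases before that of Itgax. None of the 3 motifs was in the Gpnmb, Cst7 or Cd9 window, and Axl held the reverse complement of GAGGAA from 130 bases before its start. The table had 10 windows for 8 of the 9 genes, and GAGGAA was in 5 of the 10, TGANTCA in 2 and CACGTG in 0. The 2 windows of Clec7a hold the same site, so by gene GAGGAA was in 4 of 8. The shares were 23.3% for GAGGAA, 6.75% for TGANTCA and 6.02% for CACGTG over all 32851 windows of this length. These matches describe letters, not binding.

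Each mouse gave 1 array, and the values are linear MAS 5.0 signals, scaled so that each array has a trimmed mean of 100. Per array, 35.05% to 36.73% of probes exceeded 50, the signal cutoff used in the study. Precision is limited by the number of arrays. Markers of neurons (6 of 6), oligodendrocytes (5 of 5) and astrocytes (6 of 6) were above 50 in every group. The arrays of the aged injured group lay farthest from their own group, aged injured replicate 1 most of all (mean distance 72.5 over the log2 signals of 10511 genes, against 55.9 and 47.5 for replicates 2 and 3 and 26.2 to 33.8 for the other 9 arrays), and the summed signal of 6 neuron markers was 1187 to 7820 in aged injured against 5416 to 8277 in young injured and 14370 to 14940 in young intact cords. Member results that change without that array are given with their values. Calls over all genes changed too without it, from 57 higher and 28 lower to 132 and 84 for age in intact cord, from 464 and 481 to 232 and 388 for age in injured cord, and from 14 and 32 to 41 and 73 for the interaction of age and injury. Signals are compared between groups for the same gene, never between genes, since each probe has its own response.

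**Figure D1:**
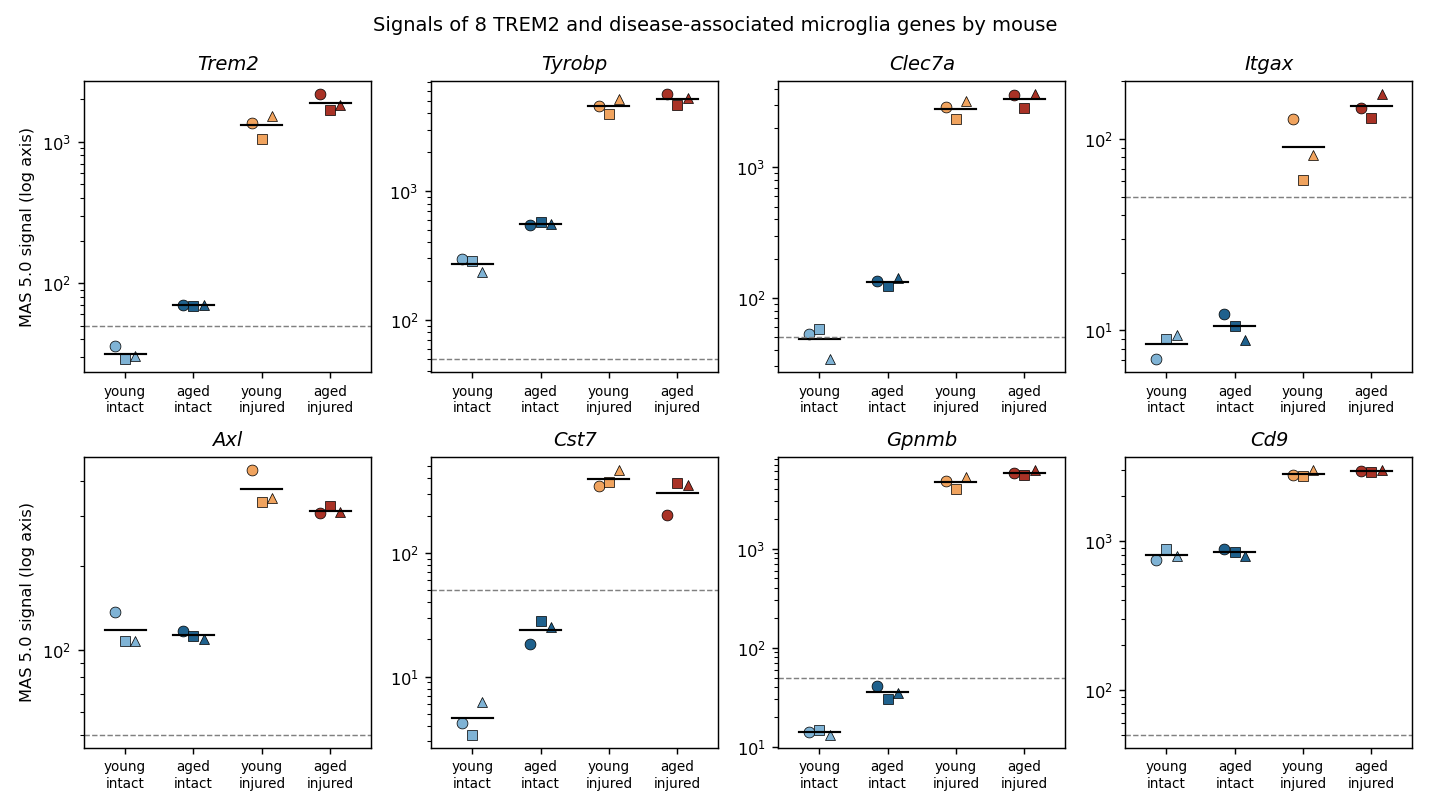
MAS 5.0 signal (log axis, no unit) of each of 8 members in each mouse, by group; circles, squares and triangles are replicates 1, 2 and 3, bars are group means of 3 mice, and the dashed line is a signal of 50. In every panel all injured cords lie above all intact cords. The share of all genes so placed was not computed, and Itgax, Cst7 and Gpnmb have group means above 50 in injured cord alone. In intact cord Trem2, Tyrobp, Clec7a, Cst7 and Gpnmb lie higher in all 3 aged than in all 3 young mice, as do 14.3% of all genes.

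Trem2 was under the cutoff in young intact cord and was high in every injured cord. Its signals were 35.7, 29.1 and 30.3 in young and 70.5, 69.0 and 70.0 in aged intact cords, then 1356, 1055 and 1518 in young and 2170, 1688 and 1832 in aged injured cords. The 4 groups did not overlap and stood in that order. Its other probe read 1.0 to 13.4 on all 12 arrays and gives no further information. Injury raised Trem2 at least 26.2-fold in young mice (the intact mean set to 50) and 27.2-fold in aged mice, with log2 differences of 5.36 (standard error 0.14, adjusted p = 6.32e-10) and 4.76 (adjusted p = 2.23e-09).

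Tyrobp, the signalling adaptor of TREM2 and of several other myeloid receptors, was well above the cutoff already in intact cord. It read 298.9, 284.9 and 237.7 in young intact and 542.6, 570.3 and 551.5 in aged intact cords. After SCI it read 4592, 3968 and 5213 in young and 5631, 4640 and 5223 in aged mice. The intact groups were apart and the injured groups overlapped. It rose 16.8-fold with injury in young mice (adjusted p = 9.01e-10) and 9.31-fold in aged mice (adjusted p = 6.19e-09).

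Clec7a encodes Dectin-1, a receptor for fungal glucans that signals through SYK. Its signals were 53.0, 58.1 and 34.2 in young and 133.8, 123.9 and 141.3 in aged intact cords, and after SCI 2875, 2332 and 3207 in young and 3604, 2859 and 3623 in aged mice. The order was that of Tyrobp, with overlap between the injured groups alone. Injury raised it at least 56.1-fold in young (adjusted p = 2.31e-09) and 25.3-fold in aged mice (adjusted p = 1.42e-08).

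Itgax encodes CD11c, the alpha chain of an integrin of dendritic cells and activated microglia. It was under the cutoff in all intact cords, at 7.1 to 9.4 in young and 8.9 to 12.2 in aged mice. In injured cord it read 126.8, 61.1 and 82.9 in young and 144.8, 129.0 and 171.1 in aged mice, so the aged cords lay just above the highest young one. The rise was at least 1.81-fold in young (log2 difference 3.35, adjusted p = 1.54e-06) and at least 2.97-fold in aged mice (3.82, adjusted p = 4.47e-07). Of 6 other dendritic cell markers with a probe, 0 had a group mean above 50 in either injured group, and their summed signals were 112.0 to 130.3 in young and 85.7 to 127.9 in aged injured cords.

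Axl is a TAM receptor tyrosine kinase that binds apoptotic cells through the bridging protein GAS6, and glia other than microglia and vessel cells express it too. It read 136.5, 108.0 and 108.2 in young intact and 117.3, 111.9 and 109.7 in aged intact cords. After SCI it read 439.2, 336.2 and 347.6 in young and 308.0, 326.2 and 309.7 in aged mice. It rose 3.18-fold in young (adjusted p = 7.29e-07) and 2.79-fold in aged mice (adjusted p = 1.32e-06), and it was the one member whose aged injured signals all lay under the young injured ones. Its other probe read 2.4 to 8.1 throughout.

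Cst7 encodes cystatin F, an inhibitor of lysosomal cathepsins. It was under the cutoff in all intact cords, at 4.2, 3.4 and 6.2 in young and 18.2, 28.1 and 25.3 in aged mice. After SCI it read 348.4, 372.2 and 468.4 in young and 203.5, 364.3 and 353.0 in aged mice, with overlap. Injury raised it at least 7.93-fold in young (adjusted p = 2.01e-08) and at least 6.14-fold in aged mice (adjusted p = 1.02e-06).

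Gpnmb, a lysosomal and cell surface glycoprotein of lipid-laden phagocytes, went from dim to bright with injury. It was under the cutoff in intact cord, at 14.0, 14.7 and 13.3 in young and 41.1, 30.3 and 35.1 in aged mice. It reached 4813, 4026 and 5318 in young and 5785, 5564 and 6215 in aged injured cords, a rise of at least 94.4-fold in young (adjusted p = 1.16e-11) and at least 117-fold in aged mice (adjusted p = 4.69e-11). Its other probe read 76.0, 49.4 and 84.5 in young injured and 191.4, 94.1 and 109.0 in aged injured cords, and kept the order of the injured groups. In intact cord this probe read 1.9, 0.6 and 4.7 in young and 0.2, 4.0 and 2.6 in aged mice, so there the ages overlapped.

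Cd9, a tetraspanin that glia other than microglia also carry, had the smallest shift with injury after Axl. It read 750.4, 886.8 and 788.1 in young and 881.0, 849.6 and 796.8 in aged intact cords, and after SCI 2794, 2736 and 3008 in young and 2972, 2906 and 2998 in aged mice. It rose 3.52-fold in young (adjusted p = 8.77e-09) and 3.51-fold in aged mice (adjusted p = 1.05e-08), and neither pair of ages was apart.

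Thus 8 of 8 members tested were called higher with injury at both ages, that is at a Benjamini-Hochberg adjusted p under 0.05 over all 10511 genes. Injury moved most of the cord transcriptome, with 33.9% of genes called higher and 34.1% lower in young and 35.6% higher and 39.9% lower in aged mice, so a call alone sets the members little apart. With each array centred on its median, the young split was 2601 higher and 4731 lower and the median log2 difference over all genes moved from -0.00 to -0.20, and the 8 members were still called higher. Itgax, Cst7 and Gpnmb passed the signal filter through their injured groups and so had to differ. Markers of other states moved as well. Of 9 genes of monocytes and infiltrating macrophages, 8 were higher in young and 9 in aged mice, 6 of the 9 having been under the cutoff in both intact groups, and of 9 homeostatic microglia genes 6 were higher at each age and 2 lower in aged mice (Sall1 and Siglech). Their part in the members' shifts was not tested.

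In intact cord, Trem2, Tyrobp, Clec7a, Cst7 and Gpnmb were higher in aged than in young mice, and Itgax, Axl and Cd9 did not pass the test. These 5 of 8 compare with 0.542% of all genes called higher and 0.266% called lower in this comparison, and for each of the 5 all aged signals lay above all young ones, as they did for 14.3% of all genes. With the intact arrays fitted alone more genes were called, 258 higher and 217 lower of 9418. In that fit 3 of 5 members were called higher (Trem2, Tyrobp and Clec7a). Tyrobp rose 2.03-fold, from 273.8 ± 32.1 to 554.8 ± 14.1 (SD, n = 3 each; log2 difference 1.03, standard error 0.11, adjusted p = 0.00146). Clec7a rose at least 2.66-fold (log2 difference 1.49, adjusted p = 0.00358), with a young mean of 48.4 ± 12.6 just under the cutoff and an aged mean of 133.0 ± 8.73 (SD, n = 3 each). Trem2 rose at least 1.40-fold, from 31.7 ± 3.52 to 69.8 ± 0.764 (SD, n = 3 each; log2 difference 1.15, adjusted p = 0.00245).

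Cst7 and Gpnmb passed this test with both groups under the cutoff, where no fold is given. The log2 differences were 2.40 for Cst7 (adjusted p = 0.0021) and 1.33 for Gpnmb (adjusted p = 5.24e-04). With log2(signal + 16) the difference for Cst7 was 0.95 and its call ended (adjusted p = 0.0695). With the mean over the probes of a gene, the calls for Gpnmb (0.44, adjusted p = 0.910) and Trem2 (0.91, adjusted p = 0.629) ended. With every signal under 50 set to 50 before the logarithm, a setting added after the data were seen, Tyrobp and Clec7a were still called, Trem2 had an adjusted p of 0.144, and Cst7 and Gpnmb had no difference left. The intervals of the other 3 members were -0.26 to 0.88 for Itgax, -0.31 to 0.21 for Axl and -0.09 to 0.22 for Cd9 (95%, log2). Leaving out any 1 array changed none of these 8 calls.

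Myeloid markers were higher in aged intact cord too. Of 10 pan-myeloid genes, 7 were called higher and 0 lower, their median log2 difference was 0.88, and their summed signal was 2742 to 3008 in aged against 1615 to 1769 in young mice. None of the 10 is a member, and Itgam and Spi1 had means under 50 in both groups. Of 9 homeostatic microglia genes 1 was higher, Gpr34. The part of these markers in the members' differences was not tested.

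**Figure D2:**
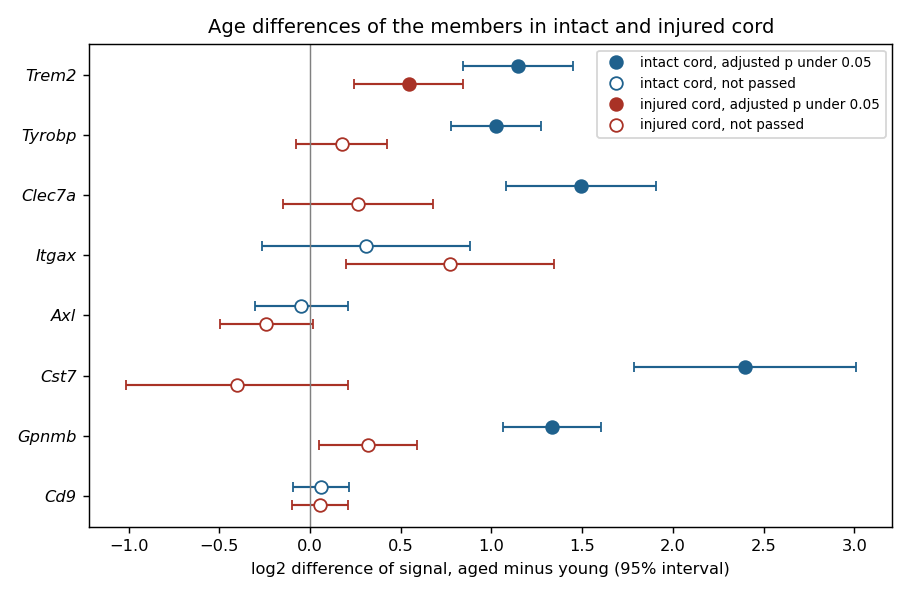
Log2 difference of signal, aged minus young, of each member in intact (blue) and injured (red) cord, with 95% intervals from limma; filled points have an adjusted p under 0.05. In intact cord 5 members are filled and lie at 1.03 to 2.40, and in injured cord Trem2 alone is filled, at 0.54.

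In injured cord, Trem2 was the one member called higher in aged mice and none was called lower, against 4.41% of all genes higher and 4.58% lower (548 genes higher and 327 lower with arrays centred on the median, against 464 and 481). These counts over all genes moved with single arrays, to 151 and 146, 117 and 179, or 230 and 188 when replicate 1, 2 or 3 of the young injured group was left out, and to 1234 and 1840 or 198 and 281 when replicate 2 or 3 of the aged injured group was. Trem2 was 1.45-fold higher, with means of 1309 ± 235.1 in young and 1896 ± 247.4 in aged mice (SD, 3 mice each; log2 difference 0.54, 95% interval 0.24 to 0.84, adjusted p = 0.0358). This call was close to the threshold. It ended without young intact replicates 2 and 3, young injured replicates 1 and 2, each aged intact replicate and aged injured replicates 1 and 3 (with adjusted p between 0.0508 and 0.1004), and with the 6 injured arrays fitted alone (adjusted p = 0.166), where limma called 0 of 9834 genes and 1937 had an unadjusted p under 0.05. The difference without aged injured replicate 1, the array that stood apart, was 0.44 (adjusted p = 0.0792).

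Gpnmb and Itgax also had all aged injured signals above all young ones, and Axl had them all below, without passing the test. The shares of all genes so placed were 14.0% higher and 14.1% lower. The log2 differences were 0.32 for Gpnmb (adjusted p = 0.113), 0.77 for Itgax (adjusted p = 0.0806) and -0.24 for Axl (adjusted p = 0.187). Itgax passed without young injured replicate 1, its brightest young array (1.05, adjusted p = 0.0496). It also passed with log2(signal + 16) (adjusted p = 0.04225). With signals under 50 set to 50, Itgax (adjusted p = 0.0315) and Gpnmb (adjusted p = 0.0408) passed. Array weights, which raised calls over all genes to 1889 higher and 2308 lower, gave adjusted p of 0.00165 for Itgax, 0.0112 for Gpnmb and 0.0339 for Axl. For Tyrobp, Clec7a, Cst7 and Cd9 the groups overlapped, with intervals of -0.08 to 0.42, -0.15 to 0.68, -1.02 to 0.21 and -0.10 to 0.21 on the log2 scale.

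By the cutoffs of the study, a signal above 50 and a ratio of means above 2, 0 of 8 members differed between aged and young injured cord. The share of all genes past these cutoffs was not computed, so this count does not set the members apart from other genes. The ratios ran from 0.774 for Cst7 to 1.64 for Itgax. In the same cords the 10 pan-myeloid genes summed to 15650 to 20010 in young and 20500 to 24380 in aged mice, with 3 of 10 called higher (Itgam, Cd68 and Laptm5). The 10 markers of monocytes and infiltrating macrophages summed to 8106 to 11250 in young and 12120 to 18310 in aged mice, with 2 of 9 tested called higher (F13a1 and Arg1) and the mean of Cd163 under 50 in both groups. Their part in the Trem2 difference was not tested.

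The shift with injury was smaller in aged than in young mice for Cst7 and Gpnmb by a test of the difference itself, the interaction of age and injury. Called lower were 2 of 8 members, against 0.304% of all genes lower and 0.133% higher. The aged shift minus the young one was -2.80 for Cst7 (95% interval -3.67 to -1.94, adjusted p = 0.0176) and -1.01 for Gpnmb (-1.40 to -0.63, adjusted p = 0.0376). Both rest on intact signals under the cutoff. With log2(signal + 16) neither was called (adjusted p = 0.0662 for Cst7 and 0.172 for Gpnmb), and with signals under 50 set to 50, these values were -0.40 for Cst7 (adjusted p = 0.444) and 0.32 for Gpnmb (adjusted p = 0.213), so the direction for Gpnmb turned.

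Tyrobp and Clec7a, read above the cutoff in aged intact cord, gave -0.85 (adjusted p = 0.0567) and -1.23 (adjusted p = 0.0816) and missed the threshold. With signals under 50 set to 50 they passed it, at -0.85 (adjusted p = 0.0313) and -1.04 (adjusted p = 0.0242). Both passed with quantile normalization and with array weights too, and Tyrobp also with a mean signal above 100, with log2(signal + 16) and with the mean over probes. They also passed without aged injured replicate 1 (-0.92, adjusted p = 0.0210, for Tyrobp and -1.28, adjusted p = 0.0473, for Clec7a) and without aged injured replicate 2, and Tyrobp passed without young injured replicate 2. The call for Gpnmb ended without any 1 of young intact replicates 1 to 3, young injured replicates 1 and 3, aged intact replicates 1 to 3 or aged injured replicate 3 (with adjusted p between 0.0589 and 0.119), and that for Cst7 without young intact replicate 2, young injured replicate 1 or 3, or aged intact replicate 2 or 3 (between 0.0519 and 0.0661). Trem2 gave -0.60 (adjusted p = 0.179), and for Itgax, Axl and Cd9 the intervals were -0.34 to 1.27, -0.55 to 0.17 and -0.22 to 0.21.

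**Figure D3:**
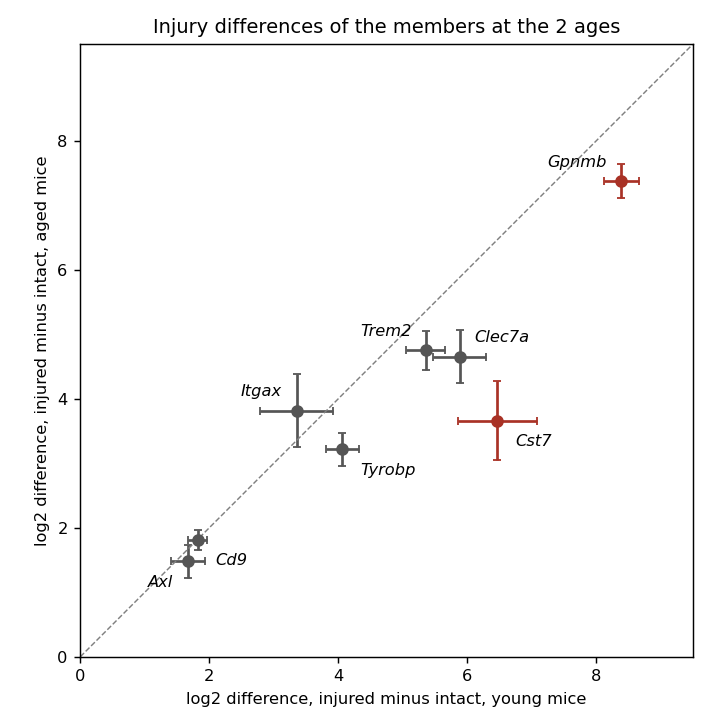
Log2 difference of signal, injured minus intact, of each member in young (horizontal axis) and aged mice (vertical axis), with 95% intervals; the dashed line marks equal shifts, and red points (Cst7 and Gpnmb) have an interaction with an adjusted p under 0.05. Of the 8 members, 7 lie below the line, Cd9 by less than its error, and Itgax lies above it. The share of all genes below the line was not computed, and the median over all genes of the aged minus the young shift is -0.06. With signals under 50 set to 50, that difference is 0.32 for Gpnmb and 0.061 for Trem2, above the line.

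Since numbers of myeloid cells and RNA per cell cannot be told apart in a segment, each member was also set against the mean log2 signal of the 10 pan-myeloid genes on the same array, with no test. That mean rose by 3.78 with injury in young and by 3.27 in aged mice, and was higher in aged mice by 0.86 in intact and 0.35 in injured cord. Gpnmb went, relative to it, from -2.48, -2.45 and -2.48 in young intact to 2.10, 2.14 and 2.19 in young injured cords and from -1.68, -2.31 and -1.97 in aged intact to 1.96, 2.19 and 2.21 in aged injured cords. Trem2 went from -1.13, -1.47 and -1.29 to 0.27, 0.21 and 0.38 in young mice and from -0.91, -1.13 and -0.98 to 0.54, 0.47 and 0.44 in aged mice. Both therefore lay higher against the myeloid mean in every injured than in every intact cord at both ages. The myeloid mean has its own limit in intact cord. Itgam and Spi1 had means under the cutoff in both intact groups and passed the signal filter through injured cord, and Cd68 was under it in young intact cord. The size of the rise of the myeloid mean with injury is therefore uncertain.

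Relative to this mean, 5 members (Trem2, Tyrobp, Clec7a, Cst7 and Gpnmb) were higher without overlap in young injured than in young intact cord, as were 0.79% of all genes. In aged mice 4 members were (Trem2, Clec7a, Itgax and Gpnmb), as were 1.62% of all genes, and without aged injured replicate 1 Cst7 was too, which makes 5. Itgax, Cst7 and Gpnmb had intact signals under the cutoff, so their place in intact cord is uncertain. The same holds in young intact cord for Trem2, with every signal under the cutoff, and for Clec7a, with a mean of 48.4. Axl and Cd9 were lower at both ages, as were 97.9% of all genes in young and 96.2% in aged mice, so their place is that of most genes. Tyrobp differed from the myeloid mean by a small shift, 0.29 without overlap in young mice and -0.06 with overlap in aged mice.

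For age in intact cord, Clec7a, Cst7 and Gpnmb were higher relative to the myeloid mean without overlap, as were 0.181% of all genes. Clec7a read -0.56, -0.47 and -1.11 in young and 0.02, -0.28 and 0.04 in aged mice. Trem2 and Tyrobp overlapped, with differences of 0.29 and 0.17, and Axl and Cd9 were lower, as were 95.8% of all genes. Cst7 and Gpnmb were under the cutoff in both groups, so their place against the mean is uncertain, and with log2(signal + 16) 2 members were higher in place of 3. The young mean of Clec7a was just under the cutoff, at 48.4. Without young intact replicate 1 or aged intact replicate 2, 5 members were higher.

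For age in injured cord, Trem2 was higher relative to the myeloid mean, by 0.20 and without overlap, as were 3.23% of all genes. Tyrobp, Axl, Cst7 and Cd9 were lower, as were 44.8% of all genes. Tyrobp read 2.03, 2.12 and 2.16 in young and 1.92, 1.93 and 1.95 in aged mice, a place shared with nearly as large a part of all genes as of the members. When young injured replicate 1 was left out Itgax was higher too, and in its place, when aged injured replicate 1 was left out, Gpnmb was, which makes 2 in each case.

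**Figure D4:**
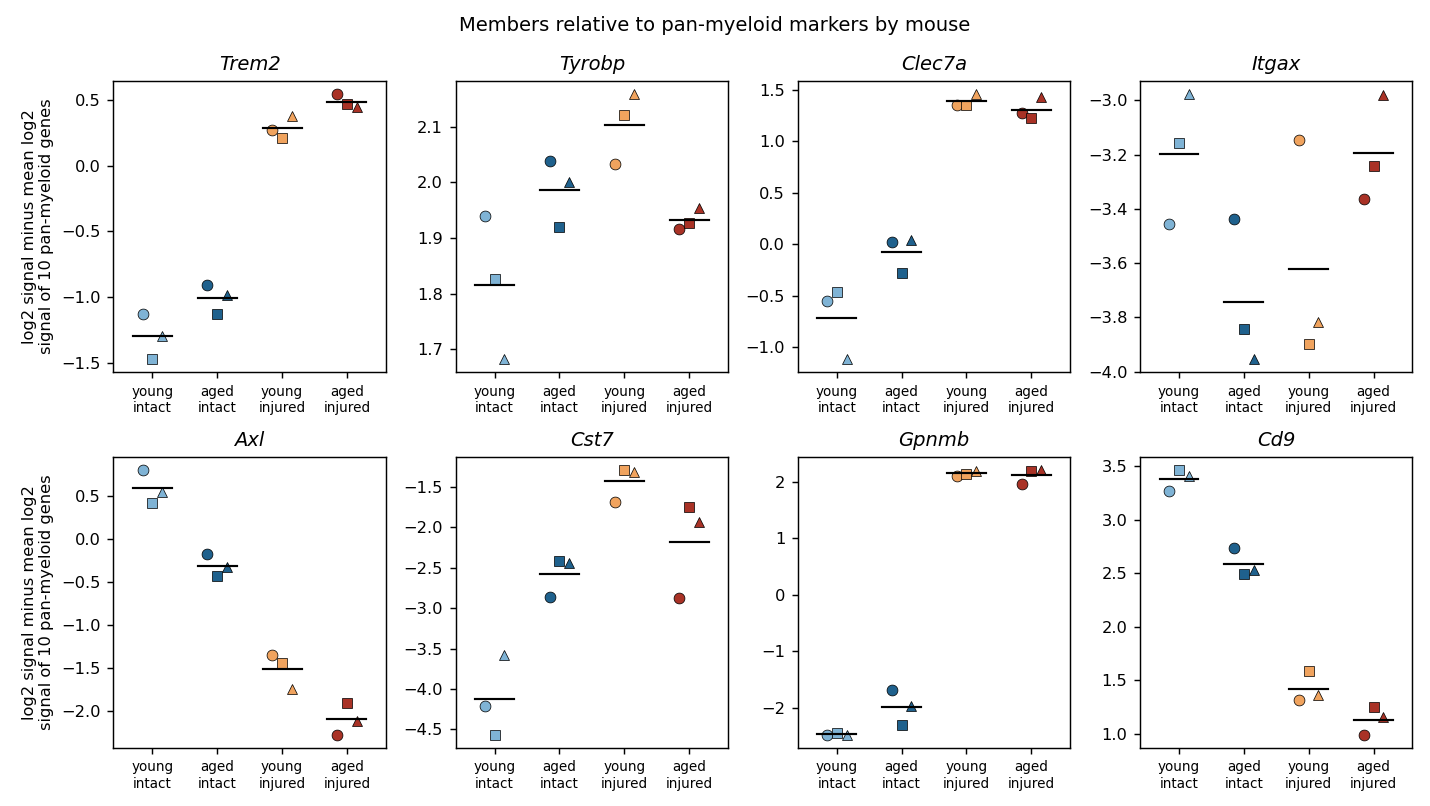
Log2 signal of each member minus the mean log2 signal of 10 pan-myeloid genes on the same array, by group, with replicates as circles, squares and triangles and bars at the means of 3 mice. Gpnmb and Trem2 lie higher in every injured than in every intact cord at both ages, Axl and Cd9 lie lower, and Trem2 is higher and Tyrobp lower in aged than in young injured cords.

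Most listed partners of the TREM2 and TYROBP receptor complex were higher after injury. Of 15 signalling and partner genes tested, 14 were called higher in young and 13 in aged mice and 0 lower, where 33.9% and 35.6% of all genes were higher. Of the 15, 7 (Hcst, Syk, Vav1, Inpp5d, Lat2, Pik3cg and Btk) passed the signal filter through injured cord alone and so had to differ. Hcst encodes DAP10, the adaptor that pairs with TYROBP receptors, and its mean rose from 6.87 to 85.1 in young and from 12.1 to 108.5 in aged mice. Syk, the kinase recruited by TYROBP, rose from 5.6 to 97.5 and from 10.7 to 149.3. Apoe, a lipid carrier bound by TREM2, rose from 2027 to 6018 and from 2222 to 5897. None of the 15 was called between ages in intact cord. In injured cord Vav3, Lat2 and Adam10 were higher in aged mice and Clu lower, where Adam10 encodes the protease that sheds TREM2 (log2 difference 0.37, adjusted p = 0.0267) and Lat2 an adaptor of immune receptors (1.49, adjusted p = 0.0138).

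Of the 4 other TAM genes, Mertk, Gas6 and Pros1 were higher with injury at both ages, Tyro3 was lower in aged mice (log2 difference -0.92, adjusted p = 0.00598), and 0 were called between ages in intact or injured cord. Mertk, a phagocytic receptor, rose from 90.5 to 561.7 in young and from 98.3 to 616.4 in aged mice. Of the receptors of osteopontin, the product of Spp1, Cd44, Itgav, Itgb1 and Itga4 were tested and all 4 were higher at both ages, Itga4 from under the cutoff in intact cord, with Itgav also higher in aged mice after SCI (0.33, adjusted p = 0.0439).

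Itgb2, the beta chain that pairs with CD11c, rose with injury as did Itgam and Itgal, 3 of 3 tested. Itgam and Itgal were under the cutoff in both intact groups and so had to differ. Itgb2 was higher in aged intact cord (log2 difference 1.03, adjusted p = 0.0268), and in injured cord its difference was 0.65 (adjusted p = 0.0509). The mean of Itgb2 did not exceed the cutoff in young intact cord, so the size of its difference in intact cord is uncertain. Of 3 lectin relatives of Clec7a, 0 were called between ages, and all 3 were higher with injury, which the filter fixed, since each was under the cutoff in intact cord. Clec4n had means of 6.17 and 6.77 in young and aged intact cord. Of the partners of Cd9, Ptgfrn and Cd82 rose at both ages, and Cd81, at 3574 in young intact and 3922 in young injured cord, did not pass (0.13, adjusted p = 0.252).

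Of 6 genes listed with Cst7, for cystatin C and 5 lysosomal proteases, 6 were higher with injury in young and 5 in aged mice. Ctss, which encodes cathepsin S, was, like Cst7, higher in aged intact cord (log2 difference 0.91, adjusted p = 6.27e-04) and had a lower interaction (-0.85, adjusted p = 0.0176). Its signals were far above the cutoff, with means of 979.8, 1839, 5729 and 5944 in the 2 intact groups and the 2 injured groups, young before aged. After SCI, Ctsl and Lgmn were higher in aged mice (0.30, adjusted p = 0.0349, and 0.71, adjusted p = 0.0272).

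Of 28 other genes of the disease-associated state that were tested, 25 were higher and 1 lower with injury at each age, 5 of them under the cutoff in both intact groups, with Cadm1 the lower one in young and Ank in aged mice. In intact cord 5 were higher in aged mice (Cd68, Lyz2, B2m, Cd52 and Lgals3) and Igf1 was lower, at 480.2 in young and 192.7 in aged mice (log2 difference -1.34, adjusted p = 0.00929). In injured cord 9 were higher in aged mice, among them Lpl, the lipoprotein lipase (0.83, adjusted p = 0.0132), and Ch25h, which hydroxylates cholesterol (0.78, adjusted p = 0.0184), and Csf1 and Ank were lower. Lyz2, B2m and Lgals3 had a lower interaction, and Lgals3, which encodes galectin-3, had the largest (-1.96, adjusted p = 0.00959). Over all genes, 33.9% were called higher with injury in young and 35.6% in aged mice. With age, 0.542% were higher and 0.266% lower in intact cord, and 4.41% higher and 4.58% lower in injured cord. A lower interaction was called for 0.304%. The median log2 differences of the 28 were 0.15 and 0.18 with age in intact and injured cord, against medians over all genes of 0.00 and -0.04.

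The genes nearest to each member were found by the root mean square difference of their log2 signals, each centred on its own mean, over the 12 arrays and 10511 genes, as a description in which the injury contrast weighs most. Trem2 lay nearest to Cd48 (0.224) and then to Clec7a (0.262), and Trem2 was in turn the gene after Cd48 for Clec7a. Tyrobp lay nearest to Laptm5 (0.145), Ptprc (0.161) and Fcgr3 (0.165). Cst7 lay nearest to Lgals3 (0.569) and Clec7a (0.614), and Gpnmb to Ly9 (0.652), so neither had a close match. Axl lay nearest to Lama2 (0.141), Rhoj and Col12a1, genes of the extracellular matrix and vessels, and Cd9 to Ctsb (0.086), while Itgax lay nearest to Rbm47 (0.232), Ifi30 and Naip2.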

How the data were processed

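Total RNA (100 ng) from each of 12 cord segments was labelled and hybridized to 1 GeneChip whole-genome mouse array. The authors converted the scans to signal intensity with MAS 5.0, and the deposited values are linear intensities scaled to a trimmed mean of 100 per array (lowest and highest 2% of probes left out). The build behind the probe annotation is not given in the sources used here. Of 45101 probes, 34958 had 1 gene, 932 several and 9211 none in the platform annotation, and 34754 of the single-gene IDs were found in RefSeq with 0 symbols changed. Each gene took its probe of highest mean signal, and genes with a group mean above 50 in at least 1 group were kept. Log2 signals were fitted with limma 3.58.1 (R 4.3.3; 1 mean per group, eBayes with a trend, 8 residual degrees of freedom before moderation), and Benjamini-Hochberg adjustment ran over 10511 genes. The fit was tested on simulated data in which each gene had the same spread in all 4 groups. That test does not cover the wider spread of the aged injured arrays. A fold is the ratio of group means, with a mean under 50 set to 50 and "at least" written, and none where both were under 50. Every member is named, and a list gene is named where it is a direct partner of a member or the count is 5 or fewer, with a few further values given as examples. The members and lists were chosen with earlier results of these data known. The 3 mice of a group are separate samples in the labels. Alternatives covered filters, pseudocount, scaling, probes, weights, a replicate block and each array left out. The promoter sequences are RefSeq's.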

Additional observations from a re-analysis of the deposited data

Results flagged for a closer look

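For Cst7 and Gpnmb the shift with injury differed between the ages by a test of the interaction. The log2 shift in aged mice minus that in young mice was -2.80 for Cst7 (adjusted p = 0.0176 from limma; mean signals 4.6 and 23.9 in young and aged intact and 396.3 and 306.9 in young and aged injured cord). It was -1.01 for Gpnmb (adjusted p = 0.0376; 14.0 and 35.5 in intact and 4719 and 5854 in injured cord). In both, all intact signals lay under 50, and the calls did not hold with log2(signal + 16) (adjusted p = 0.0662 and 0.172) or with signals under 50 set to 50, which gave -0.40 for Cst7 (adjusted p = 0.444) and turned Gpnmb to 0.32 (adjusted p = 0.213).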

How the results depend on the processing

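The injury calls of the 8 members held at both ages in every alternative that kept them, and with the mean over the probes of a gene 7 were left to test because Axl fell under the cutoff. The members called higher with age in intact cord went from 5 to 3 with the arrays of the groups compared alone, where Cst7, Gpnmb and Itgax no longer passed the filter, to 4 with log2(signal + 16), to 3 with the mean over probes and to 2 with signals under 50 set to 50, and were 5 in every fit with 1 array left out. In injured cord the 1 call became 2 with log2(signal + 16), 0 with the 6 injured arrays alone, 4 with array weights, 0 with the mean over probes, 3 with signals under 50 set to 50, and 0 to 1 with 1 array left out. The 2 interaction calls, Cst7 and Gpnmb, became 1 without a signal filter (Cst7), 3 with a mean above 100, 1 with log2(signal + 16) (Tyrobp), 4 with quantile normalization, 1 with arrays centred on the median, 1 without a trend, 5 with array weights, 1 with a replicate block and 0 to 4 with 1 array left out. The count stayed at 2 with the mean over probes (Tyrobp and Cst7) and with signals under 50 set to 50 (Tyrobp and Clec7a), but the genes changed. Members past the cutoffs of the study were 0 to 1 with 1 array left out, the 1 being without young injured replicate 1. Relative to the myeloid mean, the members higher in aged than in young cords without overlap were counted again with 1 array left out. They were 3 to 5 in intact and 1 to 2 in injured cord, and in intact cord 2 with log2(signal + 16). Array weights raised calls over all genes from 464 higher and 481 lower to 1889 and 2308 for age in injured cord, from 57 and 28 to 475 and 297 in intact cord, and from 14 and 32 to 888 and 1216 for the interaction, and the cause was not tested.

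Directions reversed as follows. For age in intact cord Axl gave 0.063 without young intact replicate 1. For age in injured cord Cd9 gave -0.0014 with quantile normalization, and Trem2 gave -0.16 with the mean over its probes, which brings in the probe reading 1.0 to 13.4. For the interaction, Gpnmb gave 0.16 with the mean over probes and 0.32 with signals under 50 set to 50, Trem2 gave 0.061 with that setting, and Cd9 gave 0.075 with arrays centred on the median and -0.073 to 0.047 with 1 array left out.

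Whether replicate numbers pair mice across groups was not settled. Of 18 pairs of samples with the same number, 2 had deviations from their group means that correlated above 0.1 (r of -0.11 to 0.67 over the 18). Both were between young injured and aged injured mice, at 0.595 for replicates 1 and 0.667 for replicates 2, against 0.015 for replicates 3. Samples with different numbers were not compared, so these values cannot show pairing or its absence. With the replicate block the interaction called 1 member, the call lost being Gpnmb (adjusted p = 0.0517), and the block changed no other call of a member. Signals under 50 limit what can be said of Itgax, Cst7 and Gpnmb in intact cord, and of Trem2 and Clec7a in young intact cord.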
